A study of Homo sapiens with 6 samples.

Results

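Clade B serpins are the intracellular branch of the serpin family of protease inhibitors, and several of them are marker proteins of squamous epithelium. The genes described here are SERPINB1, SERPINB2, SERPINB3, SERPINB4, SERPINB5, SERPINB6, SERPINB7, SERPINB8 and SERPINB13, taken with all probes that the array annotation names for them. The set was selected on the differences between histamine and control arrays of these same data, which were known when it was drawn up, so those differences are given as a description, with no p-value for a gene of the set or for the set. Of the 9 genes, 7 have a probe, with 10 probes between them of 47322 on the array, and all 10 passed the filter on dim probes. No probe is named for SERPINB2 or SERPINB6, so neither was analysed here.

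The study exposed HaCaT cells to histamine at 1 µg/ml for 24 h and profiled total RNA on Illumina HT-12 bead arrays. HaCaT is an immortalized line of human skin keratinocytes, grown here in DMEM with 1.5 mM calcium and 10% serum. The histamine group and the control group each held 3 arrays, 1 per sample. The samples are labelled as triplicates, with no word on separate cultures, so each spread and p-value covers these samples only and may be technical in part. The treatment text is the same for all samples, and the control group is known by its agent label. Histamine samples carry names from 1 numbered series and control samples names from another, so a batch and the treatment cannot be told apart.

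Serpins present an exposed reactive loop as bait. The target protease cleaves the loop and is trapped in a covalent complex with the serpin, which is used up in the reaction. Clade B members lack a classical signal peptide and act mostly inside the cell, where in keratinocytes they are known to restrain lysosomal cathepsins and proteases that arrive from neutrophils and mast cells. SERPINB3 and SERPINB4, the squamous cell carcinoma antigens, are tandem copies known to be raised in psoriatic and eczematous skin.

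SERPINB3 and SERPINB4 lie next to each other on chromosome 18 and start from almost the same sequence, which is shown because these are the genes of the set with the widest separation between the groups. Both stretches are the 250 bases before the annotated start, from RefSeq on build GRCh38.p14, minus strand, 5′ to 3′, at chr18:63661894-63662143 for SERPINB3 and chr18:63644257-63644506 for SERPINB4. Capitals mark the bases that differ between the copies.
SERPINB3: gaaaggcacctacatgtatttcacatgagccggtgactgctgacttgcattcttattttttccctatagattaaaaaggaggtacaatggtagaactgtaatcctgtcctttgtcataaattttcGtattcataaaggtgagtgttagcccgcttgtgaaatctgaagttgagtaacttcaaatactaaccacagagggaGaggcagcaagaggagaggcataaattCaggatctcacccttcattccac
SERPINB4: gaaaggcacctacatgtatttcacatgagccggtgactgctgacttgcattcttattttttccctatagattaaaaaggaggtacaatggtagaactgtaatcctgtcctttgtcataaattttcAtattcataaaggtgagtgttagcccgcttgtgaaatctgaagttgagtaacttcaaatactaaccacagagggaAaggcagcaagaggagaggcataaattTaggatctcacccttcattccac
The stretches were the same at 247 of 250 bases, or 98.8%. With positions counted from 1 at the 5′ end and the SERPINB3 base first, the differences are G126A, G201A and C228T. In the 50 bases after the start there was 1 more difference. Other pairs of clade B serpin genes were the same at a median of 24.8% of bases without gaps, with 34.4% the highest of 125 pairs of promoter windows.

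Arrays were comparable in brightness. The median probe signal was 121 to 124 on histamine arrays and 122 to 141 on control arrays, and 36.7% to 40.9% of probes were detected per array. Skeletal muscle transcripts were present on all 3 histamine arrays, and by far most on replicate 1. The 17 probes of muscle markers summed to a signal of 37857 on that array, to 2854 and 2932 on the other histamine arrays, and to 1784 to 2133 on control arrays. ACTA1, skeletal muscle actin, had a normalized log2 intensity of 13.92, 9.51 and 9.19 on the histamine arrays, against 4.52, 4.66 and 4.54 on the control arrays, and CKM, muscle creatine kinase, 12.50, 7.53 and 7.11 against 4.55, 4.58 and 4.49. Of 11 muscle markers on the array 5 were measured. ACTA1, CKM, MYH7 and MYL1 were detected on all 3 histamine arrays and on 0 control arrays, so they passed the filter only through the histamine arrays and their control values are background. MB was detected on 3 histamine and 2 control arrays. The difference of each serpin is also given without histamine replicate 1, which lowers the muscle signal but does not remove it from the histamine group, and its part in the serpin differences was not tested. The keratinocyte markers KRT5, KRT14, SFN, ITGB4, LAMB3, DSP and KRT18 were all measured, with a median log2 difference of 0.03, and 1 of the 7 rose, KRT14 (0.53, limma adjusted p = 0.00161). Of 6 fibroblast and 3 melanocyte markers on the array none was measured, with PDGFRB and TYR detected on no array. Most immune cell markers were not measured. PTPRC, CD163, MPO and CD3E were detected on no array, 2 of 11 markers were measured, and the summed signal of the list was 3500 to 3670 on histamine arrays and 3418 to 3930 on control arrays. Of the measured pair CD68, a lysosomal protein, rose by 1.26 on the log2 scale (limma adjusted p = 0.000187), and CD14 differed by 0.16 (adjusted p = 0.474). Markers of the differentiated squamous layer, where several clade B serpins are known to be made, moved both ways. Of 8 measured, SPRR1A (0.93, adjusted p = 0.000812), SPRR2A (1.51, adjusted p = 0.000204) and FLG (0.71, adjusted p = 0.00209) rose and KRT4 fell (-0.46, adjusted p = 0.0429), with the list's summed signal 12987 to 17950 on histamine arrays and 17069 to 22292 on control arrays. The part of differentiation in the serpin differences was not tested. These are bulk samples, in which fewer cells of a type and less RNA per cell cannot be told apart.

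In all, 5 of the 7 measured serpins lay past the threshold of the fit over all genes, an adjusted p under 0.05 in limma, all of them higher with histamine. Over all 10406 genes tested 21.4% lay past it, 9.29% higher and 12.1% lower. None of the 7 was lower, also at an unadjusted p under 0.05, where 6 were higher. The groups did not overlap, with histamine above, for 5 of 7 serpins and for 14.4% of all genes. The median log2 difference was 0.64 over the 7 serpins and -0.08 over all genes. Since the set was chosen with this comparison in view, nothing is read from these counts.

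**Figure D1:**
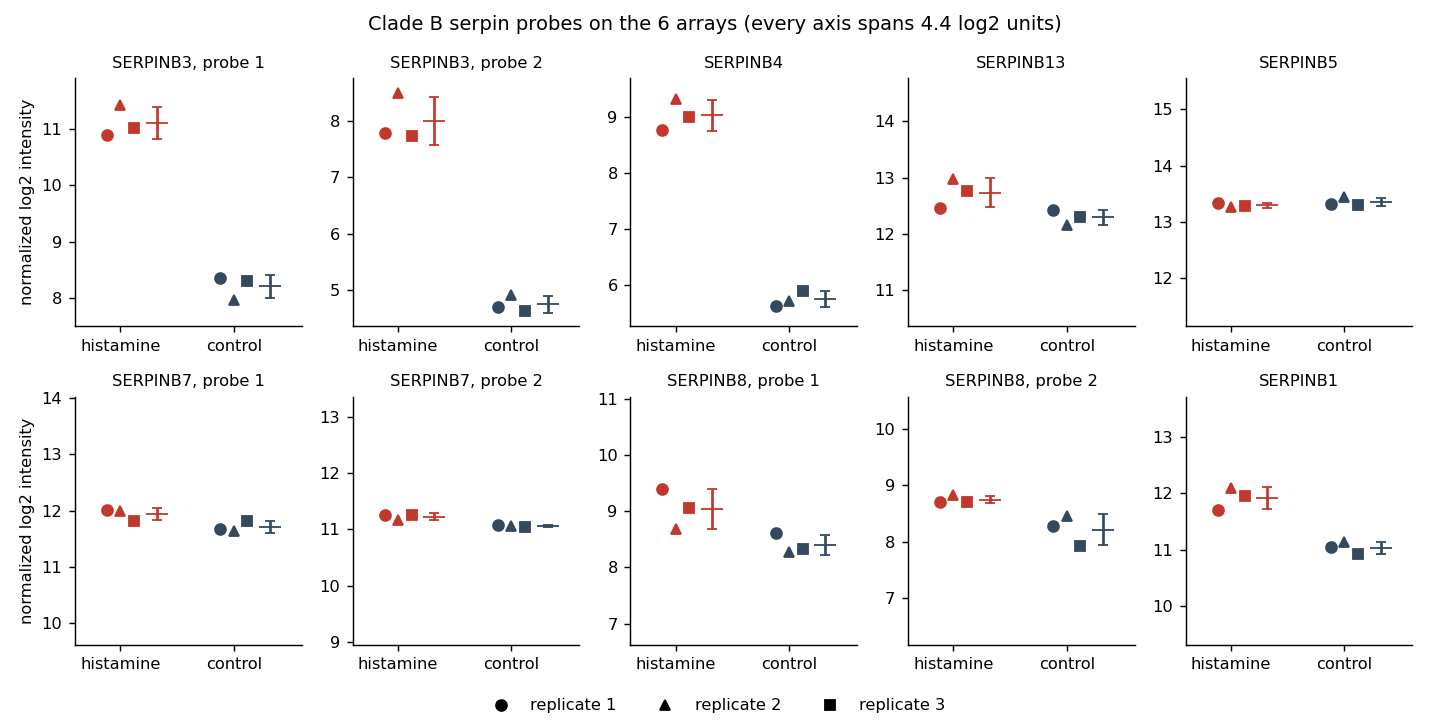
Normalized log2 intensity of the 10 probes of the 7 measured serpins on the 3 histamine arrays (red) and the 3 control arrays (dark); symbols are replicates, bars are the mean ± SD, and every axis spans the same range of log2 units. SERPINB3 and SERPINB4 separate widely, SERPINB1 less so, and the SERPINB5 groups overlap.

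SERPINB3 encodes an inhibitor of cysteine proteases such as cathepsins L, S and K. Its brighter probe had a normalized log2 intensity of 10.89, 11.43 and 11.02 on the histamine arrays, against 8.35, 7.97 and 8.30 on the control arrays. Every histamine array lay above every control array, with 2.54 log2 units between the nearest of them. The difference was 2.91 ± 0.15 (SE, n = 3 per group), or 7.50-fold, and 3.02 without histamine replicate 1. As deposited, before any background correction, the signal of this probe averaged 2172 on histamine arrays and 421 on control arrays, a ratio of 5.16.

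The second SERPINB3 probe was dim. It read 7.79, 8.50 and 7.74 on the histamine arrays, against 4.69, 4.92 and 4.62 on the control arrays, none of which detected it. Set against the lowest detected signal of each control array, it was at least 6.10-fold higher with histamine in the background-corrected values. That bound holds for these values only. The deposited signal averaged 337.7 on histamine arrays and 116.3 on control arrays, a ratio of 2.9. In the authors' processed values the log2 difference was 1.24. This probe passed the filter only through the histamine arrays.

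SERPINB4 encodes an inhibitor of chymotrypsin-like serine proteases, among them cathepsin G and mast cell chymase. Its probe read 8.76, 9.32 and 8.99 on the histamine arrays, against 5.64, 5.73 and 5.91 on the control arrays. The groups were 2.84 log2 units apart at the nearest arrays. On the control arrays the probe was detected, with detection p-values of 0.00649 to 0.0117, but close above the lowest detected values there, which were 5.32 to 5.50. The difference was 3.26 ± 0.19, or 9.60-fold, and 3.40 without histamine replicate 1. This difference ranked 8 of 10406 genes in the main fit, the only fit ranked, where that of SERPINB3 ranked 12. The set was chosen on these differences, so nothing is read from the ranks. Genes ahead of SERPINB4 included the muscle transcripts ACTA1 (6.3), CKM (4.51), MYH7 (3.54) and MYL1 (3.34), which were detected on no control array.

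The size of the SERPINB4 difference, and its order against that of SERPINB3, moved with the handling of background. SERPINB4 differed by 2.65 with an offset of 50, by 2.03 without background correction and by 1.63 in the authors' processed values. SERPINB3 differed by 2.77, 2.55 and 2.41 in the same settings. SERPINB4 thus had the larger difference of the pair at an offset of 16 and with median scaling (3.12, against 2.71 for SERPINB3), and the smaller in those other 3 settings. The deposited SERPINB4 signal averaged 585.3 on histamine arrays and 159 on control arrays, a ratio of 3.68. Probe sequences were not used here, and the copies are near-identical, so each probe may read both transcripts.

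**Figure D2:**
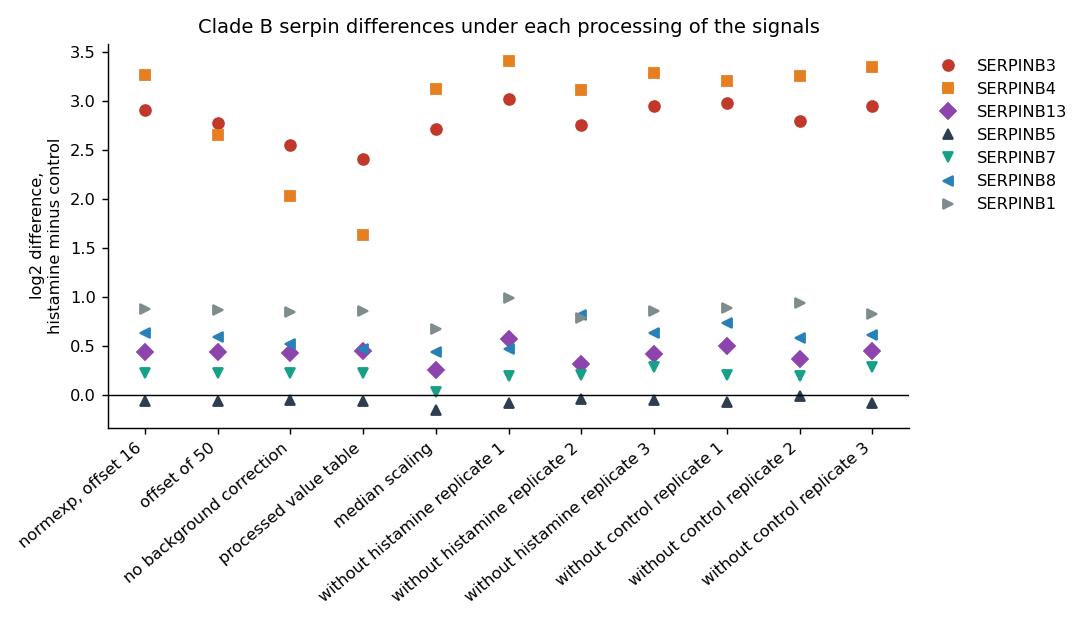
Log2 difference, histamine minus control, of the 7 measured serpins (y axis) under each processing of the signals and with each array left out (x axis). SERPINB4 moves between 1.63 and 3.40, SERPINB3 between 2.41 and 3.02 in the settings drawn, and SERPINB5 stays near 0.

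SERPINB13, or headpin, inhibits cathepsins L and K and is known from stratified epithelium. It read 12.47, 12.97 and 12.77 on the histamine arrays, against 12.42, 12.16 and 12.31 on the control arrays. The groups did not overlap, but histamine replicate 1 was only 0.05 log2 units above control replicate 1. The difference was 0.44 ± 0.12, or 1.36-fold. Without histamine replicate 1 it was 0.57, and without histamine replicate 2, the highest array, 0.32 and no longer past the threshold. It also missed the threshold without control replicate 2 (0.37) and with median scaling (0.26).

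SERPINB5, or maspin, is a serpin without known protease inhibition that is studied as a tumour suppressor of epithelial cells. It read 13.34, 13.26 and 13.28 on the histamine arrays, against 13.32, 13.44 and 13.30 on the control arrays. The groups overlapped, with a difference of -0.06 ± 0.09, and -0.08 without histamine replicate 1. Over the 16 alternatives the difference stayed negative, between -0.15 and -0.01. Filter, probe, variance and block settings leave the value of a single-probe gene unchanged, so they are no check of its sign. Relative to the median of all genes the SERPINB5 value was 0.02, and 0.11 with median scaling, so its direction rests on the scaling.

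SERPINB7, or megsin, is the serpin whose loss causes Nagashima-type palmoplantar keratosis. Its brighter probe read 12.01, 11.99 and 11.82 on the histamine arrays, against 11.67, 11.63 and 11.82 on the control arrays. The lowest histamine array and the highest control array were level. The difference was 0.23 ± 0.10, not past the threshold, 0.20 without histamine replicate 1 and 0.03 with median scaling. The second probe read 11.26, 11.16 and 11.26 on the histamine arrays, against 11.08, 11.06 and 11.05 on the control arrays. Its groups did not overlap, and its difference was 0.16 ± 0.10.

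SERPINB8, an inhibitor of the proprotein convertase furin, has probes annotated to different transcript records. The brighter probe read 9.39, 8.68 and 9.06 on the histamine arrays, against 8.61, 8.27 and 8.33 on the control arrays. The lowest histamine array lay 0.08 log2 units above the highest control array, less than the spread within the histamine arrays. Its difference was 0.64 ± 0.17, or 1.56-fold, and 0.47 without histamine replicate 1, no longer past the threshold. It also missed the threshold without control replicate 2 (0.58) and with median scaling (0.44). The second probe read 8.71, 8.82 and 8.71 on the histamine arrays, against 8.27, 8.45 and 7.92 on the control arrays. Here the control arrays were the more spread, and the difference was 0.53 ± 0.16.

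SERPINB1 inhibits the neutrophil proteases elastase, proteinase 3 and cathepsin G, and it is the measured gene of the set that lies on chromosome 6. It read 11.70, 12.10 and 11.96 on the histamine arrays, against 11.04, 11.14 and 10.93 on the control arrays. All histamine arrays were above all control arrays, by at least 0.56 log2 units. The difference was 0.88 ± 0.11, or 1.85-fold, and 0.99 without histamine replicate 1. Over the 16 alternatives the difference was between 0.68 and 0.99. Filter, probe, variance and block settings leave it at 0.88 by construction, so they do not test its size.

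Among the histamine arrays, replicate 2 was the highest for 4 of the 7 serpins, namely SERPINB1, SERPINB3, SERPINB4 and SERPINB13. Replicate 1, the array with the most muscle signal, was the lowest for the same 4 genes and the highest for SERPINB5, SERPINB7 and SERPINB8. Relative to the control mean, replicate 1 stood at 2.68 log2 units for SERPINB3, 0.66 for SERPINB1 and 0.17 for SERPINB13. On replicate 2 the same genes stood at 3.22, 1.06 and 0.68. Leaving out the lowest histamine array must enlarge a positive difference. The larger differences of these 4 genes without histamine replicate 1 therefore say nothing about the muscle signal.

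**Figure D3:**
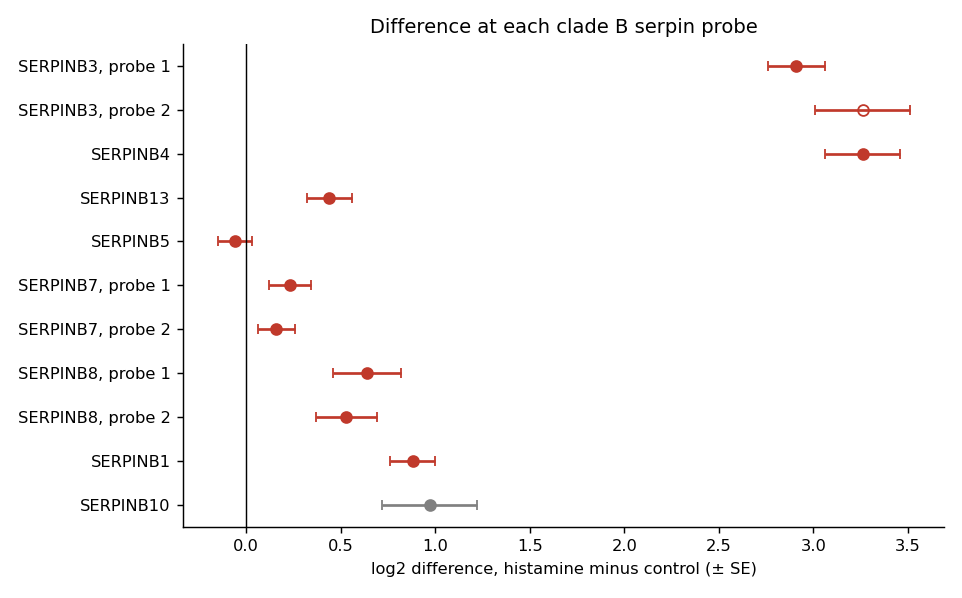
Log2 difference, histamine minus control, with its moderated SE (x axis) for each probe of the 7 serpins (red) and for SERPINB10, which is outside the set (grey). The open point is the second SERPINB3 probe, detected on no control array, whose value is not a measured fold; the other SERPINB3 probe and SERPINB4 lie near 3 and all others below 1.

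The clade has 4 further human genes on the array, and most were below detection. SERPINB11 and SERPINB12 were detected on no array, and SERPINB9, the granzyme B inhibitor, on 1 histamine array by 1 of its 2 probes. SERPINB10, or bomapin, is known from blood-forming cells and is the gene next to SERPINB2. Its probe read 6.42, 6.72 and 7.21 on the histamine arrays, against 5.83, 5.77 and 5.83 on the control arrays, so the groups did not overlap. SERPINB10 rose by 0.97 ± 0.24 (limma adjusted p = 0.00928), a call lost without histamine replicate 3, the highest array, where the difference was 0.76, and with no filter on dim probes. Its size also moved with the handling of background, to 0.45 without background correction and 0.31 in the authors' processed values.

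The clade B genes lie in 2 clusters, 10 of them on chromosome 18 and 3 on chromosome 6. Along chromosome 18 in the RefSeq gene table the measured ones run in the order SERPINB5, SERPINB13, SERPINB4, SERPINB3, SERPINB7, SERPINB10 and SERPINB8. The differences in that order were -0.06, 0.44, 3.26, 2.91, 0.23, 0.97 and 0.64, with the highest values at the adjacent copies in the middle. Of the 5 nearest protein-coding genes on each side of that cluster 4 were measured, and limma called 0 of them, with 1 lower at an unadjusted p under 0.05. VPS4B, a membrane-sorting ATPase, differed by -0.24 ± 0.10 (adjusted p = 0.0917), and TMX3 by 0.11 ± 0.15. The 3 probes of KDSR, an enzyme of ceramide synthesis, disagreed, at 0.05, 0.74 and -0.60. Beside the chromosome 6 cluster 1 of 5 measured neighbours rose. That was TUBB2A, a beta tubulin (0.90 ± 0.18, adjusted p = 0.00252, and 0.57 in the authors' processed values), whose transcript is close to that of its neighbour TUBB2B. At an unadjusted p under 0.05, 2 of these neighbours were higher and 1 lower, beside 1436 higher and 2149 lower of all 10406 genes. WRNIP1 differed by -0.43 ± 0.15 (limma adjusted p = 0.0559), with 0.39 ± 0.19 on its other probe. NQO2 differed by 0.41 ± 0.19 (limma adjusted p = 0.134).

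**Figure D4:**
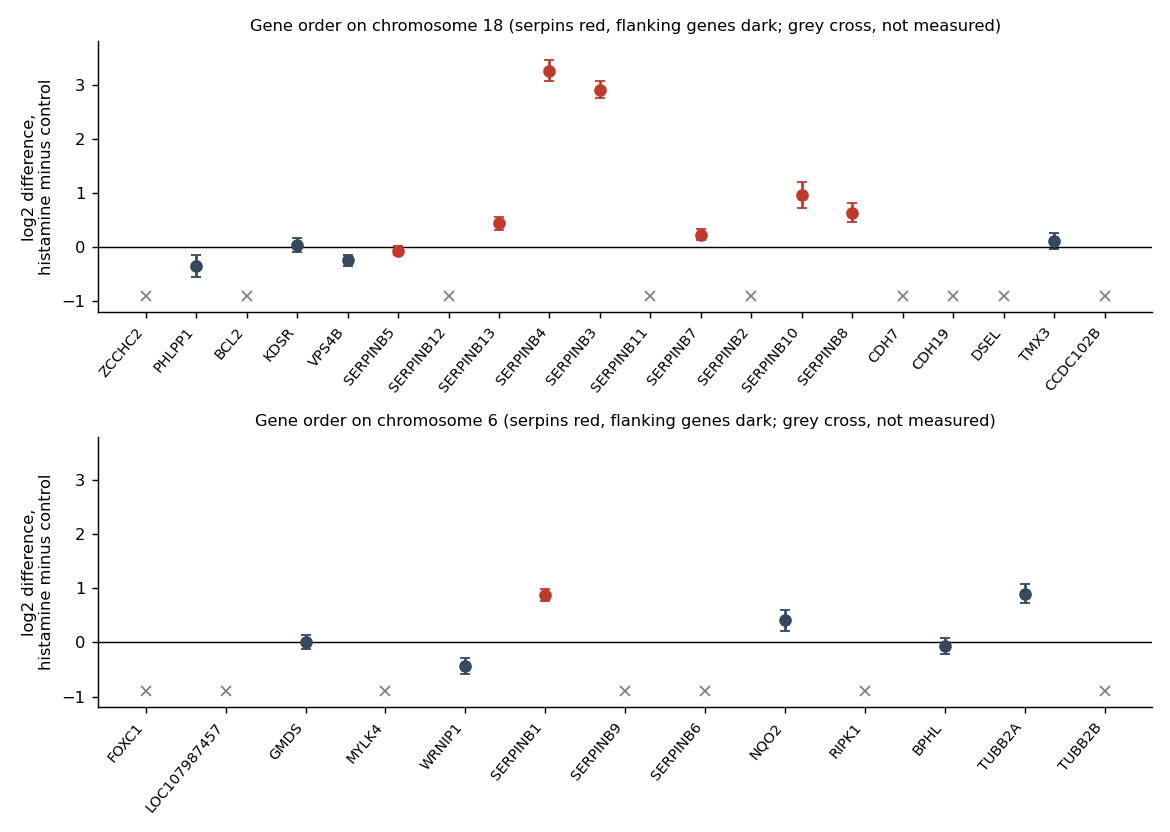
Log2 difference, histamine minus control, with its SE (y axis) for genes in their order on chromosomes 18 and 6 (x axis, not to distance), with clade B serpins in red, flanking genes dark, and a grey cross for genes not measured. The values at SERPINB4 (3.26) and SERPINB3 (2.91) stand above those of all flanking genes drawn.

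In the 250 bases before the start, short motif matches were looked up on both strands in 14 windows that RefSeq annotates for the 9 genes of the set. The AP-1 motif TGANTCA, the site of FOS and JUN factors, was present in 6 of 14 windows, against 6.57% of 35116 windows of all genes. The genes with a match were SERPINB2, SERPINB5, SERPINB7, SERPINB8 and SERPINB13. The STAT motif TTCNNNGAA was present in 3 of 14 windows, of SERPINB1, SERPINB7 and SERPINB8, against 6.57%. The cyclic AMP response motif TGACGTCA was in 0 of 14 windows and in 1.65% of all. The TATA box letters TATAAA were in 3 windows, of SERPINB2, SERPINB7 and SERPINB8, and in 10.7% of all. SERPINB3 and SERPINB4 held none of the 4 motifs in this window. A match is a description of letters and not a bound site.

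Of the proteases that clade B serpins are known to inhibit, the plasminogen activators rose, and most others were detected on no array. Of 18 listed genes, which include the urokinase receptor, 7 were measured, 3 rose, 0 fell and 4 did not pass. At an unadjusted p under 0.05, 5 were higher and 0 lower. For this list and those below, the same cut over all 10406 genes gave 1436 higher and 2149 lower. PLAU, urokinase and the main target of SERPINB2, read 10.91, 11.13 and 11.11 on the histamine arrays, against 9.61, 9.82 and 9.98 on the control arrays, and rose 2.37-fold (1.25 ± 0.12, limma adjusted p = 2.71e-06). PLAT, the tissue-type activator, read 7.29, 7.59 and 7.67 on the histamine arrays, against 5.84, 6.17 and 6.44 on the control arrays. PLAT rose 2.58-fold (1.37 ± 0.22, adjusted p = 0.000313), with a log2 difference of 0.73 without background correction and 0.54 in the authors' processed values. Both activators were higher on every histamine array than on any control array.

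CASP1, the inflammatory caspase, rose by 0.49 ± 0.14 (limma adjusted p = 0.0231), with 1.14 ± 0.15 on its other probe. That call was lost with median scaling, without the intensity trend and without histamine replicate 2, histamine replicate 3 or control replicate 3. PLAUR, the urokinase receptor, differed by 0.56 ± 0.20 (adjusted p = 0.0512), with 0.54 ± 0.20 and 0.94 ± 0.24 on its other probes. The cathepsins CTSL and CTSV, targets of SERPINB3 and SERPINB13, differed by 0.28 ± 0.11 (adjusted p = 0.0702) and -0.01 ± 0.11 (adjusted p = 0.977). The other CTSL probes disagreed in sign, at -0.14 ± 0.20 and 0.31 ± 0.11. FURIN, the target of SERPINB8, differed by 0.07 ± 0.23. CTSS, CTSK, CTSG, CMA1, ELANE, PRTN3, GZMB and GZMH, the other cathepsins, chymase, neutrophil proteases and granzymes of the list, were detected on no array.

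Other protease inhibitors of the epidermis moved both ways. Of 14 listed, 8 were measured, 2 rose, 1 fell and 5 did not pass; at an unadjusted p under 0.05, 2 were higher and 3 lower. SLPI, which inhibits elastase and cathepsin G, rose by 1.15 ± 0.17 (adjusted p = 0.000144), or 0.73 in the authors' processed values. PI3, or elafin, which inhibits elastase and proteinase 3, rose by 0.84 ± 0.11 (adjusted p = 5.45e-05). CSTA, a cystatin that inhibits cysteine cathepsins as SERPINB3 does, fell by 0.56 ± 0.19 (adjusted p = 0.0421). It was lower on every histamine array than on any control array, at 7.33, 6.85 and 7.12 against 7.75, 7.67 and 7.55. This call did not hold when dim probes were kept, when replicate numbers entered as a block, or when histamine replicate 2, histamine replicate 3, control replicate 1 or control replicate 2 was left out, and its difference was -0.35 without background correction and -0.27 in the authors' processed values. CSTB, the other measured cystatin of the cytosol, differed by -0.26 ± 0.10 (adjusted p = 0.0764).

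Serpins of other clades were mostly below detection. Of 21 listed genes 3 were measured, and limma called 0 of them, with 0 at an unadjusted p under 0.05. SERPINE2 differed by 0.23 ± 0.13, SERPINH1, a collagen chaperone, by -0.03 ± 0.11, and SERPINA3 by 0.32 ± 0.60. SERPINA3 was detected on all 3 histamine arrays, at 7.07, 6.43 and 5.69. Of the control arrays only 1 detected it, at 8.28, higher than on any other array.

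Of 16 receptors and factors known upstream of squamous serpins 11 were measured, 1 rose, 0 fell and 10 did not pass; at an unadjusted p under 0.05, 3 were higher and 1 lower. IL13RA1, a chain of the IL-4 and IL-13 receptor, rose by 0.37 ± 0.12 (limma adjusted p = 0.0324), a call that median scaling, a fit with no trend, a replicate block and leaving out any array other than control replicate 3 each ended. IL4R, the other chain, differed by 0.41 ± 0.15 (adjusted p = 0.0663), and STAT6, which both cytokines activate, by 0.44 ± 0.17 (adjusted p = 0.0803). STAT3 differed by 0.15 ± 0.12. Over all 39 measured partner genes of these lists and the cluster neighbours, 8 rose and 1 fell, or 23.1%, beside 21.4% of all genes. Only the pooled share is close. Of all genes 9.29% were higher and 12.1% lower, so the directions split otherwise among the partner genes. The lists were drawn up with earlier results of these data known, so nothing is read from that split.

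**Figure D5:**
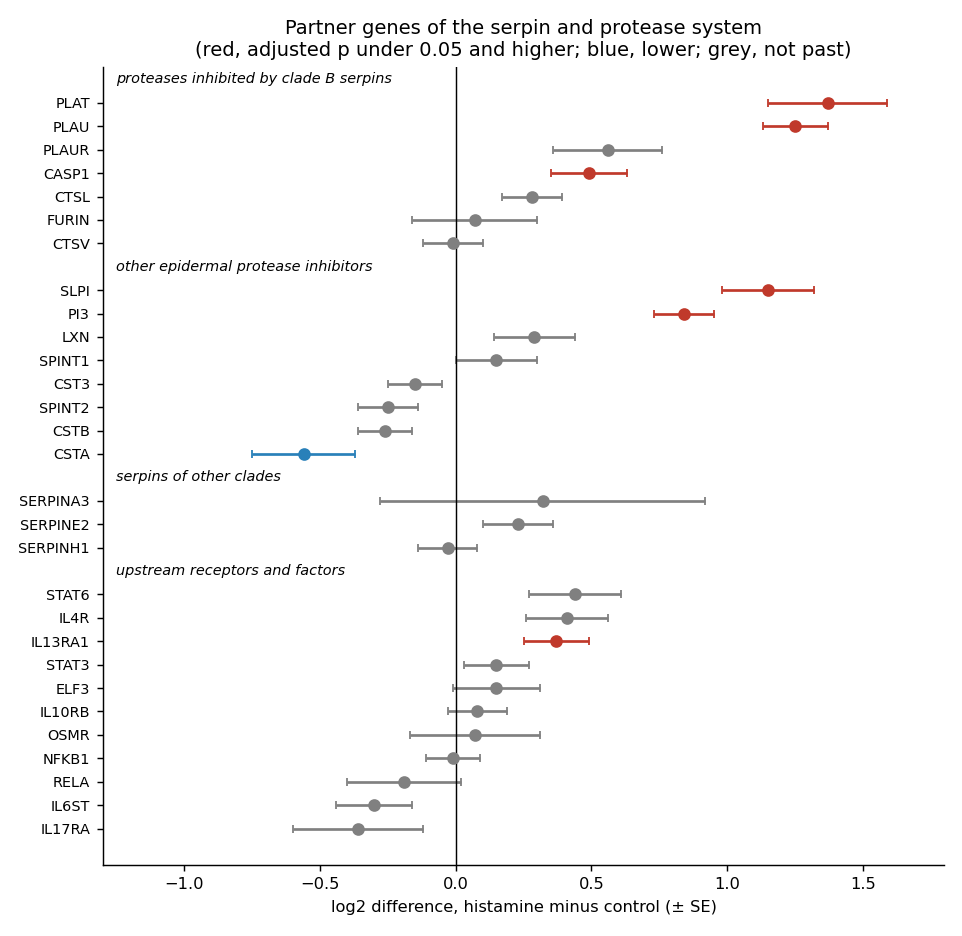
Log2 difference, histamine minus control, with its SE (x axis) for the measured partner genes by list, red for genes that rose, blue for genes that fell and grey for genes that did not pass. PLAT, PLAU, SLPI and PI3 lie at 0.84 to 1.37, and CSTA alone is blue.

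The genes whose profile over the 6 arrays was most like that of SERPINB4 were sought by the root mean square difference of centred log2 values, with serpins left out. They were IL6 (0.16), SAA1 (0.33), S100A7 (0.33), S100A9 (0.38) and KRT16 (0.39), which encode a cytokine, an acute phase protein, 2 S100 proteins and a stress keratin. The brighter SERPINB3 probe lay at 0.23 from SERPINB4, and 1 gene lay nearer. The measure is dominated by the gap between the groups. IL6 and SAA1 were detected on 1 control array each and S100A7 on none, so their control values are background levels.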

How the data were processed

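Total RNA of 3 histamine and 3 control samples was measured, 1 array each. The deposited values are bead-averaged signal intensity per probe, per the file headers, from GenomeStudio 2010.1, per the submitters' processing notes; they differ in median between arrays, as unscaled signals do. The deposited detection p-value ranks each probe among the negative control beads, per the file headers. The authors' processed values are on a log2-like scale with the same median, 7.46, on all 6 arrays, and correlate with the log2 of the deposited signal at 0.993 to 0.999 per array, so scale and direction follow the signals, with no centring per gene. The tool lumi is named in the submitters' processing notes; the exact transform is not stated.

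Signals were background corrected (limma 3.58.1, normexp, offset 16, negative controls inferred from the detection p-values; R 4.3.3), log2 transformed and quantile normalized. The offset compresses differences of dim probes. Probes were kept if 3 or more of the 6 arrays had detection p-values below 0.05, which left 17871 of 47322. The kept probe of highest mean represented each gene, for 10406 genes; 30112 probes carry 1 symbol, 8 several and 17202 none. A linear model of the 2 groups, moderated by empirical Bayes with a trend on intensity, was fitted to all genes, with Benjamini-Hochberg adjustment over all of them, and tested on simulated data. Second probes take their standard error from the same fit over all kept probes. Precision is limited by 3 arrays per group.

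The genes of the set, the partner lists and the named genes (every clade B serpin, up to 4 genes past the threshold per partner list, and the 5 profiles nearest to SERPINB4) were chosen with earlier results of these data known; further list members, CD68 and CD14 were named after their values were seen. Another search, for profiles near SERPINB2, had no probe to start from. Of 93 partner genes, 8 have no probe named for them and were not analysed here. Promoter windows came from RefSeq, build GRCh38.p14, and matched all 9 genes. The labels give same-numbered replicates of the groups a shared number and no other link. Correlations of their deviations were -0.03, -0.03 and -0.05, which with 3 arrays per group cannot show that they were unpaired. Alternatives were other background, scaling, filter, probe, variance and block settings and each array left out.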

Additional observations from a re-analysis of the deposited data

How the results depend on the processing

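Over all genes 2224 changed; the count was 1477 with no filter on dim probes, which raises the genes tested to 20046, 1373 without the intensity trend, and 1218 to 2544 with single arrays left out, the lowest without control replicate 2. With median scaling the median difference of all genes moved to -0.26 and the split to 456 higher and 1816 lower (20.1% higher, against 43.5%). Relative to the all-gene median, SERPINB7, SERPINB8 and SERPINB13 stood at 0.31, 0.72 and 0.52 in the main fit. With median scaling they stood at 0.28, 0.69 and 0.52. Which scaling is the better was not tested. The count of serpins past the threshold was 5, and 3 with median scaling, 3 without the intensity trend, and 3 to 5 with single arrays left out (3 without control replicate 2); SERPINB8 and SERPINB13 were the ones lost in those 3 settings. Partner genes changed numbered 9, and 5 to 12 with single arrays left out (5 without histamine replicate 3); with median scaling 6 rose and 5 fell. With the replicate number as a block 1903 genes, 5 serpins and 7 partner genes passed, and it ended the calls of CSTA and IL13RA1. The 5 serpins with positive calls kept their sign in every alternative in which they were measured. Filter, variance and block settings leave the difference of a probe unchanged, so they are no check of its sign. SERPINB4 had no value under the stricter filter, which needs a detection p-value under 0.01 on 6 arrays. The cause of these shifts was not tested. Some settings also change the number of genes or arrays entering a fit. Depth is not defined for arrays; SERPINB4 and SERPINB10 on control arrays lie close above the lowest detected signals, which limits their folds.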
